A study of Mus musculus with 27 samples.

Results

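Expression of 10 genes of the pericentral zone and of Wnt signalling was followed in mouse liver over a reproductive cycle. The genes were taken as a named list (Rspo3, Lgr5, Rnf43, Znrf3, Axin2, Nkd1, Tbx3, Glul, Slc1a2 and Oat) and matched to the gene identifiers of the deposited tables by symbol. They are 10 of 51826 identifiers, and all 10 were among the 16428 genes with enough counts to be tested.

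A liver lobule is ordered along the flow of blood, from the portal vein to the central vein. Endothelial cells of the central vein release Wnt proteins and R-spondin 3, which keep beta-catenin active in the hepatocytes around them. Those pericentral hepatocytes make glutamine synthetase and clear ammonia as glutamine, whereas periportal hepatocytes make urea and glucose. Wnt activity is held in check by its own targets, among them Axin2, which helps to degrade beta-catenin, and Rnf43 and Znrf3, which remove Wnt receptors from the cell surface. R-spondins bind Lgr receptors and take Rnf43 and Znrf3 out of action.

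The data are bulk RNA sequencing of whole livers of wild-type BALB/c mice, an inbred strain. All groups were of that genotype, and the design text calls the animals age matched. The 27 animals, 1 library each, fell into 7 stages: nulliparous (NUL, not pregnant, 4 animals), day 10 of lactation (LAC, 3), involution on days 2, 4, 6 and 8 from weaning (ID2 with 3, ID4 with 4, ID6 with 6 and ID8 with 3 animals), and 4 weeks from weaning (REG, regressed, 4). Breeding began at an age of 10 to 12 weeks, litters were evened out, and weaning took place between days 10 and 14 of lactation. NUL animals served as the reference in 6 comparisons, so those comparisons share 4 libraries, and each stage was also compared with the stage before it. In a whole-liver library, fewer cells of a type and less RNA per cell cannot be told apart.

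Expected counts totalled 41120650 to 75664540 per library. Counts of the 10 genes were whole in all 27 libraries, to the 2 decimals in which expected counts were deposited. Exons of Glul, Axin2, Tbx3, Slc1a2 and Rspo3 overlap exons of a gene on the opposite strand, by up to 404 bases (Rspo3, with the antisense gene Gm48159). Glul also shares 93 bases of exon with Mir8114 on its own strand. Since the use of strand is not given in the sources used here, reads from those stretches cannot be assigned to a strand. Hepatocyte markers summed to at least 81934 CPM (the count relative to the TMM-scaled library size) in every library, and none of the 5 measured was at 0. Pancreatic acinar markers summed to 1364 CPM in animal ID2_31, to 91.6 in animal ID4_15 and to 28.8 in animal ID8_98b, and to at most 1.62 elsewhere. Title numbers fell into a range under 200 (7 animals, namely all 3 of ID8, 2 of 3 in ID2 and 2 of 4 in ID4) and a range from 200 (20 animals), and what the ranges stand for is not stated.

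Positions are those of GRCm38 in the GENCODE mouse annotation, release 21, where all 10 are protein-coding. Rspo3 (ENSMUSG00000019880) lies at chr10:29452416-29535867 and Lgr5 (ENSMUSG00000020140) at chr10:115450311-115587780, both on the minus strand. Chromosome 11 carries Rnf43 (ENSMUSG00000034177, chr11:87662722-87735539, plus strand), Znrf3 (ENSMUSG00000041961, chr11:5276324-5444847, minus) and Axin2 (ENSMUSG00000000142, chr11:108920349-108950783, plus). Nkd1 (ENSMUSG00000031661) is at chr8:88521354-88594884, Tbx3 (ENSMUSG00000018604) at chr5:119670669-119684724, Glul (ENSMUSG00000026473) at chr1:153899944-153909723 and Slc1a2 (ENSMUSG00000005089) at chr2:102658659-102790784, all on the plus strand. Oat (ENSMUSG00000030934) is at chr7:132557478-132576398 on the minus strand.

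Promoter sequences from RefSeq (GRCm38.p6), the 250 bases before an annotated start, were searched for the core of the TCF/LEF motif, through which beta-catenin acts on its targets. Both strands were searched, as CTTTGA or its reverse complement TCAAAG, and 6 of the 10 genes had an entry (7 entries, 2 of them for Rnf43). Slc1a2 alone of these held a match, with TCAAAG starting 206 bases and CTTTGA starting 77 bases before the start. That start lies inside the annotated span of Slc1a2, downstream of its first base at chr2:102658659, and its use in liver was not tested. Of 32851 entries of the same length, 13.8% held at least 1 match and 0.691% held both orientations. The promoters of 3 genes are shown because their genes moved in different ways: Slc1a2 (chr2:102706188-102706437, plus strand), Axin2 (chr11:108920099-108920348, plus strand) and Oat (chr7:132576399-132576648, minus strand). Capitals mark the matches, and a window without capitals says only that these letters are not in it.
Slc1a2: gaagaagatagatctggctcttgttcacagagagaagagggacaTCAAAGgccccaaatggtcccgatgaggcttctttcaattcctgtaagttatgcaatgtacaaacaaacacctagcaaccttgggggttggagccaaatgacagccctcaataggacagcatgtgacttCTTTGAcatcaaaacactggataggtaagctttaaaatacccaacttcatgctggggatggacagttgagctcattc
Axin2: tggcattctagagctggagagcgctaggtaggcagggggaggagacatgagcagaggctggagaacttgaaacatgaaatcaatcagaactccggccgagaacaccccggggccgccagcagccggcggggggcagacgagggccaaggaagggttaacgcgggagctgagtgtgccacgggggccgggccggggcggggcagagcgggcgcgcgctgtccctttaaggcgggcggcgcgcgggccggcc
Oat: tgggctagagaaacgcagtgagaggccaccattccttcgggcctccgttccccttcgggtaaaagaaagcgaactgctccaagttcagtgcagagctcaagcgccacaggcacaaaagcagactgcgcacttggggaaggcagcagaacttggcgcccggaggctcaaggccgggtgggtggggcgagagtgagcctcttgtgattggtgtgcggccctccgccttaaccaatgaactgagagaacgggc

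The genes differed widely in level. In NUL the length-scaled level was 349 ± 62 TPM for Glul and 295 ± 59 TPM for Oat (mean ± SD, n = 4). Slc1a2 followed at 19.1 ± 2.5 TPM, Rnf43 at 9.79 ± 2.8, Tbx3 at 6.15 ± 2.0 and Axin2 at 4.91 ± 1.2. Nkd1 stood at 3.28 ± 0.53 TPM, Lgr5 at 3.02 ± 1.9, Rspo3 at 1.80 ± 0.18 and Znrf3 at 1.63 ± 0.21. Glul and Oat were thus the most abundant of the 10, and the ligand Rspo3 and the ligase Znrf3 the least. Below, each gene is followed on the CPM scale, which serves only within a gene.

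Over the 7 stages, 3 of the 10 genes changed: Oat, Slc1a2 and Lgr5 (edgeR, any difference among stages, Benjamini-Hochberg adjusted p = 2.23e-06, 8.59e-04 and 0.0111). That share stood beside 27% of all genes tested. Of the other 7 genes, Rspo3 had an adjusted p of 0.0678, Glul of 0.0820, Rnf43 of 0.0829 and Axin2 of 0.0922, and Nkd1, Znrf3 and Tbx3 lay at 0.169 or above. With an unadjusted threshold of 0.05, 7 of the 10 passed in edgeR, beside 6394 of the 16428 genes tested. DESeq2 called 7.

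**Figure D1:**
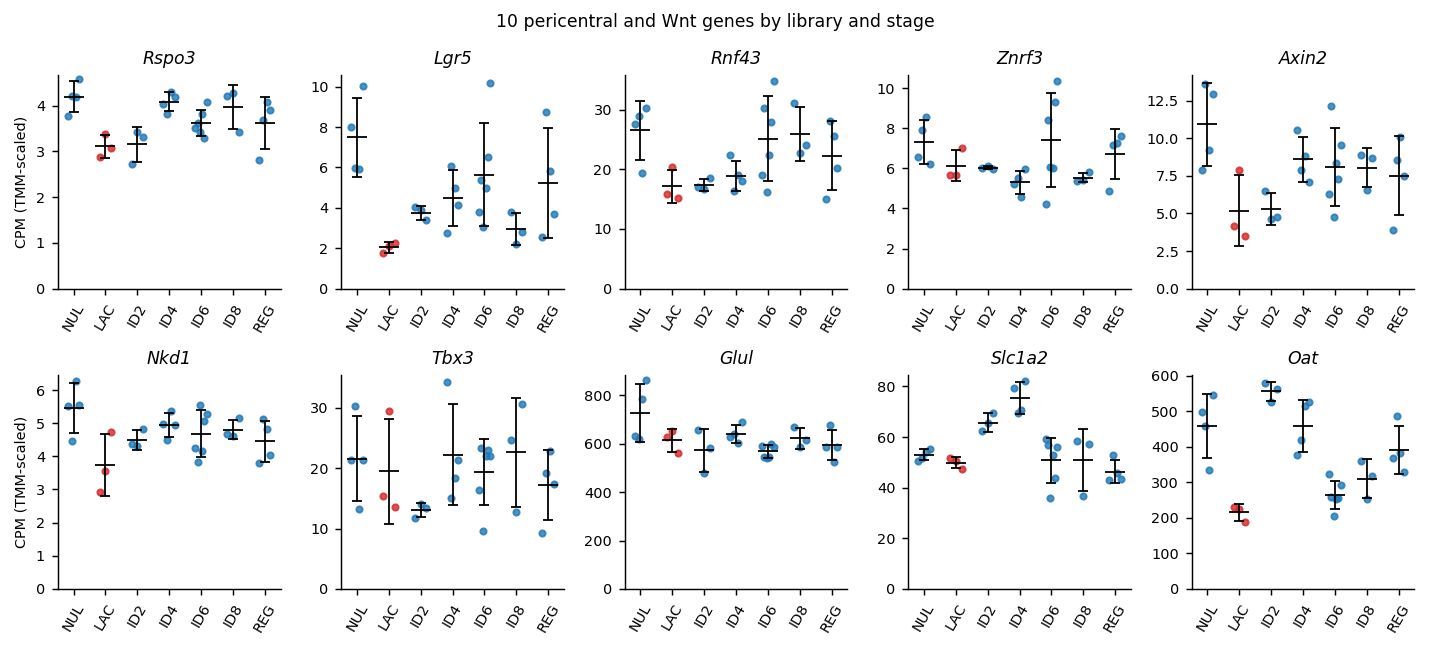
Level of each gene in CPM (TMM-scaled, linear axis from 0) for every library, by stage, with LAC in red; bars give the mean ± SD of 3 to 6 animals. Oat was lowest in LAC (189 to 231 CPM) and highest in ID2 (527 to 578), Slc1a2 peaked in ID4 (69.6 to 82.3), and Lgr5 was lowest in LAC (1.76 to 2.27).

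Lactating livers held less RNA of 5 of the 10 genes than nulliparous livers: the receptor Lgr5, the enzyme Oat, the feedback inhibitors Axin2 and Nkd1, and the ligand Rspo3. These 5 of 10 stood beside 6% of all genes called lower and 5.19% called higher in LAC against NUL. DESeq2 called 6, all lower, the sixth being Rnf43. In edgeR 7 of 10 passed an unadjusted threshold of 0.05, beside 3885 of the 16428 genes tested. No gene of the 10 was called higher, and all 10 fitted changes were below 0, with a median of -0.49 on the log2 scale against -0.01 for all genes. Glul and Slc1a2, which mark the same hepatocytes, did not pass the test.

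Lgr5, a receptor of R-spondins, was at 8.01, 5.97, 5.92 and 10.0 CPM in NUL and at 1.76, 2.10 and 2.27 CPM in LAC. Every LAC animal was below every NUL animal. Lgr5 fell by 1.87 on the log2 scale (SE 0.40, edgeR adjusted p = 0.00346). Rspo3, the R-spondin made by central vein endothelium, was at 3.77, 4.22, 4.20 and 4.59 CPM in NUL and at 2.88, 3.39 and 3.08 CPM in LAC, again without overlap. Its change was smaller, -0.43 (SE 0.14, edgeR adjusted p = 0.0431). Leaving out 1 animal ended the Rspo3 call in 6 of 7 fits, with the largest adjusted p at 0.161 (edgeR) without animal LAC_200, whereas Lgr5 kept its call in all 7.

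Among the feedback inhibitors, Axin2 was at 7.91, 13.6, 9.24 and 12.95 CPM in NUL and at 4.16, 7.87 and 3.51 CPM in LAC. The highest LAC animal came close to the lowest NUL animal, and the ranges just failed to meet. Axin2 fell by 1.07 (log2, SE 0.32, edgeR adjusted p = 0.0330). Nkd1, which binds Dishevelled, was at 5.52, 4.45, 6.28 and 5.56 CPM in NUL and at 2.91, 3.56 and 4.74 CPM in LAC, with animal LAC_240 above the lowest NUL animal. Nkd1 fell by 0.54 (SE 0.16, edgeR adjusted p = 0.0246). On leaving out 1 animal Axin2 lost its call in 4 of 7 fits (edgeR adjusted p up to 0.158, without LAC_240), with its change between -1.51 and -0.86 in all 7. Nkd1 lost its call in 3 of 7 (up to 0.174, without LAC_200), with its change between -0.75 and -0.39.

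Neither of the membrane ubiquitin ligases was called by edgeR. Rnf43 ranged from 19.4 to 30.3 CPM in NUL and from 15.1 to 20.4 CPM in LAC, and only animal LAC_213 reached into the NUL range. The fitted Rnf43 change was -0.63 (SE 0.23), which missed the threshold in edgeR (adjusted p = 0.0805) and passed it in DESeq2 (-0.62, adjusted p = 0.0286). Znrf3 lay at 6.22 to 8.54 CPM in NUL and 5.69 to 7.03 CPM in LAC, a change of -0.25 (edgeR adjusted p = 0.499). Tbx3, a transcription factor among the pericentral Wnt targets, spread from 13.3 to 30.4 CPM in NUL and from 13.5 to 29.5 CPM in LAC, a change of -0.15 (edgeR adjusted p = 0.865) whose sign turned when animal LAC_240 or animal NUL_221 was left out.

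The metabolic genes of the pericentral zone parted. Oat, the mitochondrial aminotransferase that passes the amino group of ornithine to 2-oxoglutarate, was at 498, 458, 333 and 546 CPM in NUL and at 231, 225 and 189 CPM in LAC. The LAC animals lay close together, all below the lowest NUL animal. Oat fell by 1.09 (log2, SE 0.16, edgeR adjusted p = 8.23e-05) and kept its call in all 7 fits without 1 animal. Glul, glutamine synthetase, was at 633, 620, 784 and 865 CPM in NUL and at 629, 651 and 561 CPM in LAC. The Glul ranges overlapped, and the 95% interval of its change ran from -0.47 to -0.01 (edgeR adjusted p = 0.190). Slc1a2, a glutamate importer, was at 50.7, 51.7, 54.2 and 55.2 CPM in NUL and 51.6, 50.7 and 47.4 CPM in LAC, a change of -0.09 with a 95% interval from -0.37 to 0.20 (edgeR adjusted p = 0.769).

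For 4 of the 10 genes (Axin2, Lgr5, Oat and Rspo3) every LAC animal was below every NUL animal, as for 11.2% of all genes. Without animal LAC_200 the count of called genes dropped from 5 to 2, and the called genes that held in every fit without 1 animal and in all 9 other settings were Lgr5 and Oat.

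**Figure D2:**
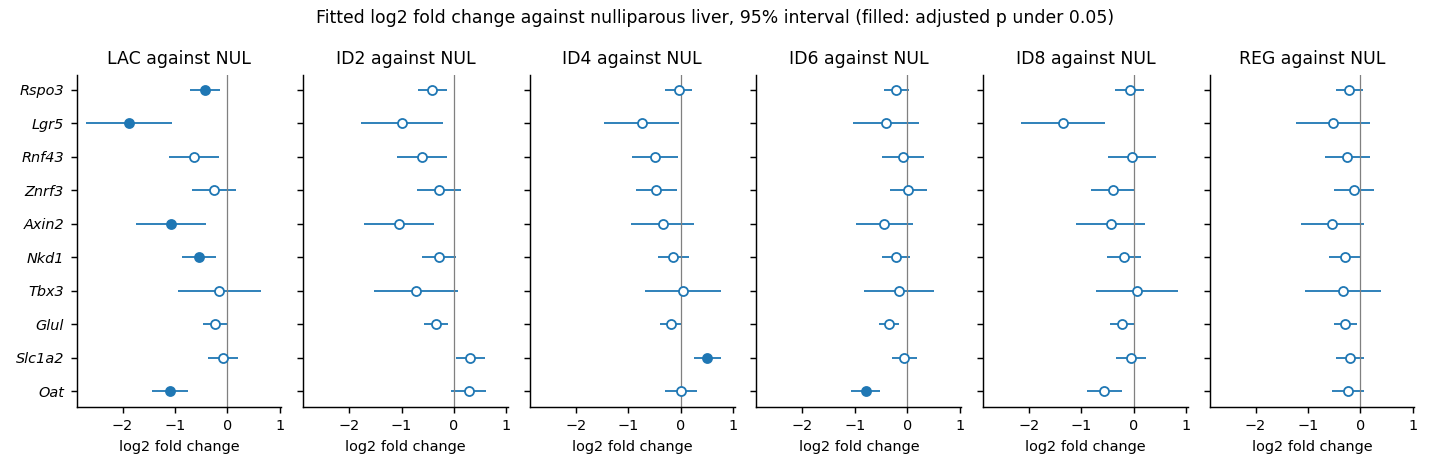
Fitted log2 fold change of each gene against NUL at the 6 other stages (horizontal axis, log2 scale), with 95% intervals from edgeR; filled points passed an adjusted p of 0.05. The 6 panels share the NUL animals. In LAC the 5 filled points run from -0.43 (Rspo3) to -1.87 (Lgr5); the other filled points are Slc1a2 in ID4 (0.51) and Oat in ID6 (-0.79).

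Summed levels of the sinusoidal endothelial, stellate, Kupffer, central vein and bile duct markers were below the NUL range in all 3 LAC animals, and red cell and hepatocyte sums were above it. The 9 sinusoidal endothelial markers summed to 258 to 317 CPM in LAC and 331 to 390 CPM in NUL, with 3 of 9 called lower. Stellate cell markers summed to 233 to 241 CPM against 296 to 343 CPM (3 of 8 called lower), and Kupffer cell markers to 200 to 287 CPM against 304 to 388 CPM (4 of 6 called lower). The central vein list, which holds Rspo3, summed to 11.8 to 13.3 CPM against 13.7 to 17.1 CPM. In it 2 of 6 genes were called lower, Rspo3 and Thbd (-0.73), and none was at 0. Bile duct markers summed to 21.4 to 28.0 CPM against 33.9 to 47.2 CPM, with 2 of 5 tested called lower. Hepatocyte markers summed to 176200 to 220990 CPM in LAC and 90036 to 117240 CPM in NUL, and albumin was the 1 of 5 called, higher by 0.98. Red cell markers summed to 768 to 1016 CPM in LAC and 335 to 712 CPM in NUL, with none of 5 called by edgeR. Their part in the changes of the 10 genes was not tested.

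**Figure D3:**
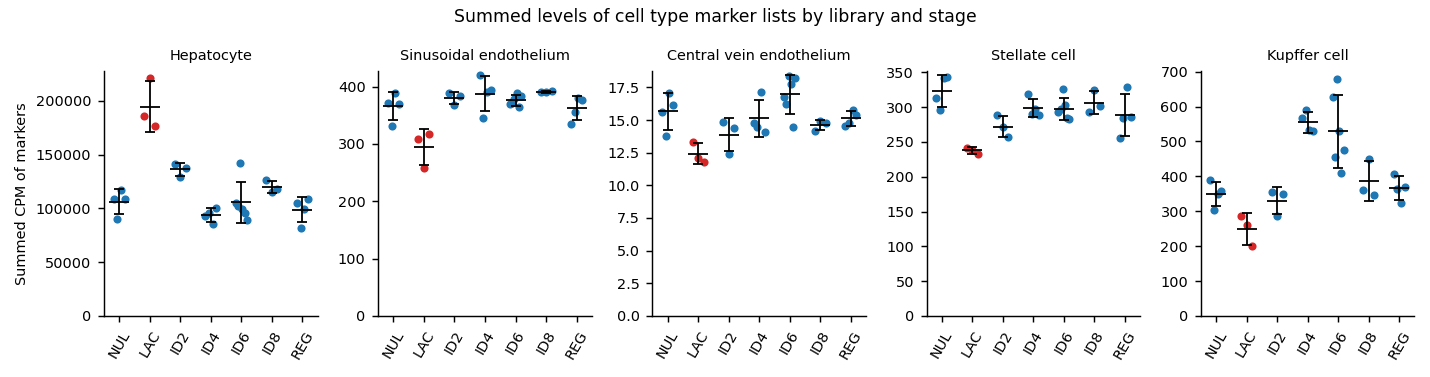
Summed CPM (linear axis from 0) of 5 marker lists in every library, by stage, with LAC in red; bars give the mean ± SD. LAC libraries lie below NUL for sinusoidal endothelium (258 to 317 against 331 to 390 CPM) and Kupffer cells (200 to 287 against 304 to 388), and above NUL for hepatocyte markers.

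At day 2 after weaning Oat rose against lactation, and no other gene of the 10 passed the test. Oat was at 578, 527 and 563 CPM in ID2, above all 3 LAC animals. It rose by 1.37 against LAC (log2, SE 0.17, edgeR adjusted p = 1.05e-05), the 1 call among the 10 genes beside 8.48% of all genes called higher and 7.64% called lower. Without animal ID2_31, whose library held pancreatic transcripts, Oat rose by 1.41 (edgeR adjusted p = 5.2e-05). Lgr5 (4.04, 3.87 and 3.38 CPM in ID2) and Slc1a2 (62.3, 65.5 and 69.5 CPM) were above all LAC animals too, but their changes of 0.88 and 0.40 missed the threshold (edgeR adjusted p = 0.156 and 0.0644). Axin2, Rnf43 and Rspo3 differed from LAC by 0.02 to 0.03. The 95% interval of the Rspo3 difference ran from -0.29 to 0.32. Sinusoidal endothelial markers summed to 368 to 388 CPM in ID2, with 6 of 9 called higher than in LAC, and Kupffer cell markers to 286 to 354 CPM, with 4 of 6 called higher (edgeR). Hepatocyte markers summed to 129150 to 141590 CPM, below all LAC animals, with 1 of 5 called lower. Their part in the Oat change was not tested.

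Against NUL no gene of the 10 was called in ID2 by edgeR, beside 3.24% of all genes (2.32% higher, 0.919% lower). With an unadjusted threshold of 0.05, 6 of the 10 passed in edgeR, beside 2773 of the 16428 genes tested. DESeq2 called 1, Axin2, at -1.04 (adjusted p = 0.0260). Yet 5 genes (Axin2, Lgr5, Rnf43, Znrf3 and Rspo3) were lower in every ID2 animal than in every NUL animal, as were 8.39% of all genes. Axin2 was at 6.51, 4.62 and 4.73 CPM in ID2, all below 7.91 CPM, the lowest NUL value. The fitted changes were -1.05 for Axin2, -0.99 for Lgr5, -0.61 for Rnf43, -0.28 for Znrf3 and -0.41 for Rspo3, with edgeR adjusted p between 0.0772 and 0.531. Slc1a2 was higher in every ID2 animal than in every NUL animal by CPM (0.31, edgeR adjusted p = 0.237), but not by TPM, where ID2 lay at 18.3 to 19.4 and NUL at 17.4 to 22.9. Rspo3, at 2.73, 3.42 and 3.32 CPM, overlapped the LAC range. Clock gene levels also differed between ID2 and NUL. On the first principal component of 14 clock genes the ID2 animals lay at 2.30, 3.55 and 8.87 and the NUL animals at -4.28 to -0.06. Single animals of other stages lay as high as the lower ID2 values, such as ID8_14 (3.79) and REG_203 (3.21). The part of this component in the ID2 levels was not tested.

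By day 4 Slc1a2 was higher than in NUL. Its levels were 79.3, 69.6, 70.7 and 82.3 CPM, all above the highest NUL animal at 55.2 CPM and the highest ID2 animal at 69.5 CPM. Slc1a2 rose by 0.51 against NUL (SE 0.13, edgeR adjusted p = 0.0200), the 1 call among the 10 genes beside 2.64% of all genes called higher and 1.61% called lower. The call was lost on leaving out 1 animal in 4 of 8 fits (edgeR adjusted p up to 0.0625, without ID4_215). It was also lost with only title numbers from 200, with the title number range as a covariate and on the TPM scale, where ID4 lay at 21.3 to 25.9 and NUL at 17.4 to 22.9. Oat had a mean of 459 CPM in both ID4 and NUL (change 0.00, 95% interval -0.30 to 0.31). Between ID2 and ID4 no gene of the 10 was called by edgeR or DESeq2, beside 1.49% of all genes in edgeR. There 2 of 10 had an unadjusted p under 0.05, beside 2286 of the 16428 genes tested. Kupffer cell markers summed to 529 to 591 CPM in ID4 and 304 to 388 CPM in NUL, without overlap, with 5 of 6 called higher (edgeR). Their part in the Slc1a2 level was not tested.

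Between days 4 and 6 Oat and Slc1a2 fell. Oat went from 376, 420, 514 and 526.2 CPM in ID4 to 323, 257, 205, 253, 257 and 292 CPM in ID6, without overlap. Slc1a2 went from at least 69.6 CPM to between 35.8 and 59.1 CPM (median 54.6), also without overlap. Oat fell by 0.79 (SE 0.13, edgeR adjusted p = 6.50e-04) and Slc1a2 by 0.57 (SE 0.12, edgeR adjusted p = 0.00290). Without animal ID4_15, which also held pancreatic transcripts, the changes were -0.84 and -0.61 (edgeR adjusted p = 0.00135 and 0.00507). These 2 of 10 stood beside 4.64% of all genes called lower and 3.89% called higher. On the TPM scale Slc1a2 lost its call. Red cell markers summed to 53.1 to 264 CPM in ID6 and 407 to 1027 CPM in ID4, with 5 of 5 called lower (edgeR), and their part in these changes was not tested. Glul, the other metabolic gene, lay lower in every ID6 animal (541 to 597 CPM) than in every ID4 animal (604 to 689 CPM), but its change of -0.17 was not called (edgeR adjusted p = 0.282). No feedback inhibitor was called: the fitted Axin2 change was -0.09, with a 95% interval from -0.64 to 0.46, and that of Nkd1 -0.08. The ligases Znrf3 (0.48, 95% interval 0.12 to 0.84) and Rnf43 (0.41, 95% interval 0.0069 to 0.80) lay above 0. Neither ligase was called (edgeR adjusted p = 0.0859 and 0.2085). Of the 10 genes, 4 passed an unadjusted threshold of 0.05, beside 3756 of the 16428 genes tested.

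Against NUL, Oat in ID6 was lower by -0.79 on the log2 scale (SE 0.13, edgeR adjusted p = 0.00131), beside 0.682% of all genes called lower. Kupffer cell markers summed to 410 to 679 CPM in ID6 and 304 to 388 CPM in NUL (4 of 6 called higher by edgeR), and red cell markers to 53.1 to 264 CPM against 335 to 712 CPM (4 of 5 called lower). Their part in the Oat level was not tested. Glul in ID6 was at 589, 546, 541, 545, 597 and 588 CPM, and all 6 animals lay below the lowest NUL animal at 620 CPM. The fitted Glul change was -0.35 (95% interval -0.55 to -0.16), which missed the threshold in edgeR (adjusted p = 0.0615) and passed it in DESeq2 (-0.36, adjusted p = 0.0144). Glul was also called without animal NUL_220 or without animal NUL_221.

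In ID8 no gene of the 10 was called against NUL by edgeR, beside 0.499% of all genes. An unadjusted p under 0.05 was reached by 2 of 10, beside 2105 of the 16428 genes tested. DESeq2 called 2, Lgr5 (-1.35) and Oat (-0.57). Lgr5 was at 3.81, 2.23 and 2.81 CPM in ID8, below all 4 NUL animals. Red cell markers summed to 19.9 to 35.0 CPM in ID8, with 4 of 5 called lower than in NUL (edgeR), and their part in these values was not tested. Between ID6 and ID8 no gene of the 10 was called by edgeR or DESeq2, beside 4.12% of all genes in edgeR. There 2 of 10 had an unadjusted p under 0.05, beside 3360 of the 16428 genes tested. All 3 ID8 animals had title numbers under 200, and all NUL, ID6 and REG animals had numbers from 200. Stage and number range therefore cannot be told apart in any comparison of ID8 with NUL, ID6 or REG.

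At 4 weeks after weaning no gene of the 10 was called in REG against NUL by edgeR or DESeq2, beside 0.0852% of all genes in edgeR. Only Glul passed an unadjusted threshold of 0.05 (1 of 10, edgeR adjusted p = 0.464), beside 1178 of the 16428 genes tested. All 10 fitted changes were below 0, with a median of -0.27 against 0.00 for all genes, and on the TPM scale 9 of 10 were below 0. Glul was at 588, 677, 525 and 588 CPM in REG, within or below the NUL range. The intervals were wide for the signalling genes: the 95% interval ran from -1.23 to 0.18 for Lgr5 and from -1.14 to 0.06 for Axin2. Against ID8 no gene of the 10 was called by edgeR or DESeq2, beside 0.0487% of all genes in edgeR. There 2 of 10 had an unadjusted p under 0.05, beside 1481 of the 16428 genes tested.

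Ordered by mean CPM, Oat was highest in ID2 (556), without overlap with ID4 but overlapping NUL, then at 459 in both ID4 and NUL, 391 in REG, 310 in ID8, 265 in ID6 and 215.1 in LAC, where neighbours from ID4 on overlapped. Slc1a2 was highest in ID4 (75.5) and ID2 (65.7), each apart from the next stage by CPM, and the other 5 stages lay between 46.3 and 53.0 and overlapped. The lowest ID4 animal (69.59 CPM) was just above the highest ID2 animal (69.47 CPM). EdgeR called Slc1a2 neither in ID4 against ID2 nor in ID2 against NUL. By TPM its mean was 18.9 in ID2 and 19.1 in NUL. Lgr5 ran from 7.48 in NUL over 5.64 in ID6, 5.21 in REG, 4.48 in ID4, 3.76 in ID2 and 2.95 in ID8 to 2.04 in LAC, and neighbours in that order overlapped. The highest and lowest Lgr5 stage means differed 3.67-fold.

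Single animals within a stage were low or high for several genes at once. animal REG_203 was the lowest of its 4 for 8 of the 10 genes, all but Glul and Oat: its Lgr5 level was 2.56 CPM against 3.71 to 8.74 in the other 3, and its Axin2 level 3.92 CPM against 7.50 to 10.1. animal ID8_14 was the lowest of its 3 for 8 genes, and animal ID6_216 the lowest of its 6 for 7. animal ID6_216 also had the highest hepatocyte marker sum of its stage (141880 CPM, stage median 100870). On the clock component animal REG_203 lay at 3.21 and the other REG animals at -1.45 to -0.08. The part of these measures in the levels was not tested.

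Over the 27 libraries some of the signalling genes varied together. Of 45 pairs among the 10 genes, 13 passed an adjusted p of 0.05 by Pearson's r and 10 passed by both r and Spearman's rho (permutation tests, log2 CPM, Benjamini-Hochberg over 45 pairs). Of the 21 pairs among the 7 signalling genes, 12 passed by r and 9 by both. The permutations moved libraries across stages, so stage differences shared by 2 genes can lower these p-values. Subtracting stage means took r from 0.513 to 0.165 for Nkd1 with Rspo3 and from 0.539 to 0.304 for Lgr5 with Nkd1. The closest pair was Axin2 and Rnf43, with r = 0.774 and rho = 0.799. Its permutation p of 1e-05 for each was the smallest that 100000 permutations can give (adjusted p = 4.5e-04). The Axin2 and Rnf43 relation held without the 2 animals farthest from the median (r = 0.721), in title numbers from 200 (0.816, n = 20) and under 200 (0.586, n = 7), and after stage means were subtracted (0.780). Axin2 and Tbx3 gave r = 0.731 and rho = 0.708 (permutation test, adjusted p = 6.75e-04 and 6.00e-04), with r = 0.682 without the 2 farthest, 0.726 and 0.829 in the title number ranges and 0.792 within stages. Axin2 and Rspo3 gave r = 0.723 and rho = 0.703 (permutation test, adjusted p = 9.00e-04 and 7.87e-04), with r = 0.646 without the 2 farthest, 0.770 and 0.573 in the ranges, and 0.488 within stages. Lgr5 and Rnf43 were related overall (r = 0.649, rho = 0.575; permutation test, adjusted p = 0.00234 and 0.0116; 0.536 without the 2 farthest), with r = 0.855 in numbers from 200 and -0.457 in those under 200. That relation did not hold in the latter range. Of the 12 signalling pairs that passed by r, 6 had an r below 0 in the 7 animals with numbers under 200, down to -0.539 for Rnf43 with Znrf3: that pair, Lgr5 with Rnf43, Axin2, Nkd1 and Rspo3, and Nkd1 with Rspo3. In numbers from 200 all 12 lay between 0.510 and 0.855.

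None of the 21 pairs of a metabolic gene (Glul, Slc1a2 or Oat) with a signalling gene passed by r or by rho. The highest r among them was 0.435 (Lgr5 with Oat), and after stage means were subtracted r reached 0.579 (Tbx3 with Slc1a2). Levels of Slc1a2 and Oat were correlated over the libraries (r = 0.591, rho = 0.584; permutation test, adjusted p = 0.00585 and 0.0116), with r = 0.492 without the 2 farthest, 0.545 and 0.728 in the title number ranges and 0.598 within stages, although in LAC against NUL Oat fell and Slc1a2 was not called. Glul passed with none of the other 9 genes. Its highest Pearson correlation was with Axin2 (r = 0.393, rho = 0.296; permutation test, adjusted p = 0.120 and 0.275; 0.232 without the 2 farthest; 0.294 and 0.789 in the ranges; 0.180 within stages), whereas by rho it was closest to Oat (0.342) and Slc1a2 (0.327). The differences between these correlations were not tested.

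**Figure D4:**
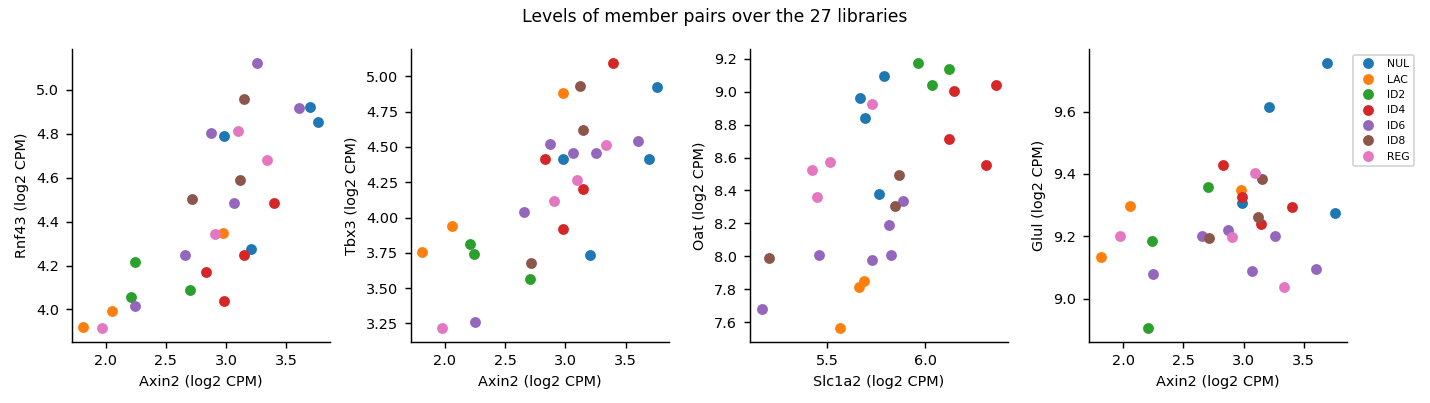
Levels of 4 pairs of genes in log2 CPM, 1 point per library, coloured by stage. Points run along a diagonal for Axin2 with Rnf43 (r = 0.774) and Axin2 with Tbx3 (r = 0.731), more loosely for Slc1a2 with Oat (r = 0.591), and are scattered for Axin2 with Glul (r = 0.393).

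Among 11433 genes with a mean of at least 1 CPM, those most like 3 of the members were listed by Spearman's rho over the 27 libraries, as a description. Axin2 was followed by Rnf43 (0.799), Npr2 (0.776), Tmem56 (0.774), Btk (0.737) and Rasa2 (0.730). For Oat they were Slc25a15 (0.885), which carries ornithine into mitochondria, Vwa8 (0.849), Agmat (0.816), Agxt (0.809) and Ivd (0.808). Glul was most like Acot8 (0.736), Sdc2 (0.635), Slc25a20 (0.616), Acadl (0.614) and Rbp4 (0.606). Libraries of a stage share that stage, and subtracting stage means left Pearson's r at 0.717 for Oat with Slc25a15 and 0.457 for Glul with Acot8. The other genes listed lay at 0.292 to 0.494 with Oat and at 0.299 to 0.434 with Glul. Those listed for Axin2 lay at 0.535 to 0.780.

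Other genes of the pathway and of the zones were followed from lists that share no gene with the 10. The lists share some genes with each other, which are counted in each: 4 (Lect2, Slc13a3, Cldn2 and Rhbg) between other Wnt targets and pericentral genes, 3 between periportal and glutamine, glutamate and ornithine genes, and Rhbg also stands in the list of glutamine, glutamate and ornithine genes. In LAC against NUL, 3 of 16 other Wnt targets fell and 1 rose (median -0.26), beside 6% of all genes called lower and 5.19% called higher, the shares against which all list counts of that comparison stand. Lect2 fell from 213.3 to 82.7 CPM (-1.37), Slc13a3 by 1.04 and Cd44 by 0.69, whereas Ccnd1, which encodes cyclin D1, rose from 59.2 to 149 CPM (1.33). On leaving out 1 animal Cd44 lost its call in 3 of 7 fits, Slc13a3 in 2 of 7 and Ccnd1 in 1 of 7 (edgeR adjusted p up to 0.156, 0.0701 and 0.0827). Of 34 other pericentral genes 8 fell and 4 rose (median -0.07). Cyp2e1, a cytochrome P450 of the pericentral zone, fell from 4184 to 1495 CPM (-1.49), while Gstm3 (1.90), Aldh1a1 (0.89) and Gstm1 (0.77) rose. Gstm genes belong to a family of similar sequences, so the division of reads among them is uncertain.

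Periportal genes showed as mixed a picture in lactation, with 6 of 31 lower and 4 higher (median 0.03). Pck1 (-1.36), Agxt (-0.72) and Ctsc (-0.63) fell and Etnppl (0.70), Cyp2f2 (0.67) and Aldh1b1 (0.67) rose. On leaving out 1 animal Pck1 lost its call in 4 of 7 fits (edgeR adjusted p up to 0.199, without LAC_213). Of 11 tested genes for Wnt ligands, their secretion and secreted modulators, Wls, which carries Wnt proteins to the surface, fell by 0.57, Wif1 fell by 1.53 and Wnt5b rose by 0.90. Wif1 was low throughout, at 0.391 CPM in LAC and 1.13 CPM in NUL. Of 32 receptors and intracellular components 2 fell (Fzd8 -0.79, Bcl9l -0.56) and 2 rose (Tcf7l1 0.58, Dvl1 0.32), with a median of -0.01, a count near the shares of all genes. Of 24 genes of glutamine, glutamate and ornithine handling 1 was called, Slc25a15, the mitochondrial ornithine carrier, which fell by 0.43 and lost its call without animal LAC_240 (edgeR adjusted p = 0.0842), while DESeq2 called 3 of the 24, all lower. Calls of Wnt5b, Fzd8, Bcl9l and Tcf7l1 were each lost in at least 4 of 7 fits without 1 animal, those of Wif1 and Dvl1 in 2 of 7 and that of Wls in 1 of 7.

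**Figure D5:**
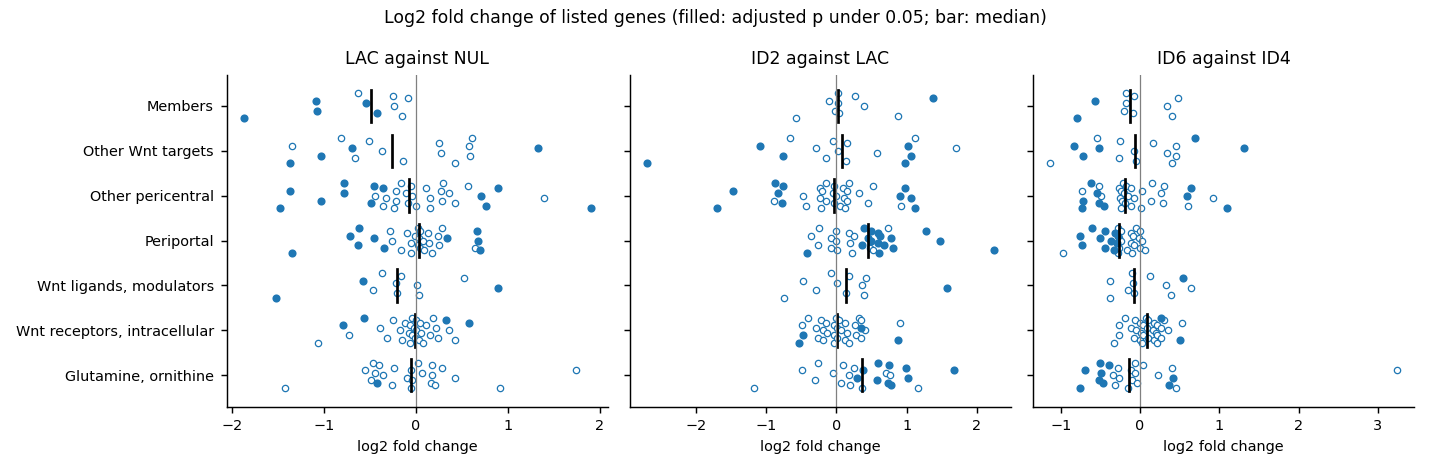
Fitted log2 fold change (horizontal axis, log2 scale) of every tested gene of 7 lists in 3 comparisons; filled points passed an adjusted p of 0.05 and the bar is the list's median. In LAC against NUL the 10 members have the lowest median (-0.49); in ID2 against LAC the periportal list has the highest (0.44).

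In ID2 against LAC, 15 of 31 periportal genes rose and 1 fell (median 0.44, all genes 0.02), while 4 of 34 pericentral genes rose and 6 fell (median -0.04), beside 8.48% of all genes called higher and 7.64% called lower. Pck1, which commits carbon to glucose production, rose by 2.25, Agxt by 1.48 and Sds by 1.28, and Cyp2f2 fell by 0.42. Among pericentral genes Cyp2e1 rose by 1.12, Slc13a3 by 1.06 and Lect2 by 0.97, and Gstm3 (-1.71), Csad (-1.47) and Aldh1a1 (-0.87) fell. On leaving out 1 animal Csad lost its call in 5 of 6 fits (edgeR adjusted p up to 0.172, without ID2_31), and Slc13a3 and Cyp2f2 each in 4 of 6. Ccnd1 fell by 2.70, from 149 to 22.9 CPM, and the other Wnt targets that fell were Tcf7 (-1.09) and Notum (-0.76). Sulf2 rose by 1.02. Of the 24 genes of glutamine, glutamate and ornithine handling, 10 rose and none fell (median 0.37). They were led by the cationic amino acid transporter Slc7a2 (1.68), Slc25a15 (1.02) and Got1 (0.997). Oat, at 1.37, thus moved in the same direction as these 10. With the clock covariate edgeR called 9 of the 31 periportal genes and 6 of the 24, and with title numbers from 200 it called 7 and 4 (of 25 then tested), all higher.

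Against NUL, 11 of 31 periportal genes were higher in ID2 and 6 in ID4 and none was lower in either, with 3 of 34 pericentral genes lower in each. Of all genes, 2.32% were called higher and 0.919% lower in ID2, and 2.64% higher and 1.61% lower in ID4. DESeq2 called 14 and 10 of the 31 periportal genes, all higher, and 3 and 6 of the 34 pericentral genes, of which 2 in ID4 were higher. With the clock component as a covariate edgeR called none of the 31 periportal genes in ID2 and 5 in ID4, and with only title numbers from 200, which leaves 1 animal in ID2 and 2 in ID4, it called 1 and 2. Pericentral calls in ID2 were 0 in both of these fits. Between ID4 and ID6, 11 of 31 periportal genes fell (median -0.26), as did 6 of 34 pericentral genes, of which 3 others rose, and 7 of 24 glutamine, glutamate and ornithine genes, of which 2 others rose. Of all genes, 4.64% were called lower and 3.89% higher between ID4 and ID6. The periportal count became 5 with the clock covariate and 3 with title numbers from 200 (edgeR). Oat and Slc1a2 fell in that interval, as given above, and kept their calls in both fits. In REG against NUL edgeR called no gene of the 6 lists. At an unadjusted threshold of 0.05, 5 of 16 other Wnt targets, 6 of 34 pericentral and 4 of 31 periportal genes passed, beside 1178 of the 16428 genes tested. DESeq2 called 2, 1 and 0 genes of these 3 lists.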

How the data were processed

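RNA from frozen, pulverised livers was made into libraries with the NEBNext Ultra kit, per the labels' protocols; 16 libraries were sequenced in 2 runs and 11 in 1. Reads were aligned to mm10 (GRCm38) with STAR 2.6.1a and quantified with RSEM 1.3.1, tools and build as listed in the submitters' processing notes. The annotation release, trimming and strand setting are not given in the sources used here. The deposited expected count per gene is RSEM's estimate of its reads, per the file headers, not normalised between libraries. The deposited TPM, per the file headers, is scaled by length and to a common total. Between 17.5% and 18.8% of detected genes had counts that were not whole.

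Symbols and positions came from GENCODE mouse release 21 by identifier; 51633 of 51826 matched, and the others held 0.0147% of counts. Rounded to whole numbers, the expected counts were fitted with edgeR 4.0.16 in R 4.3.3 (filterByExpr, TMM, quasi-likelihood with robust estimation) with all 27 libraries and 7 stages in 1 fit, so stages share 1 estimate of the spread (biological coefficient of variation 0.19). Tests were two-sided, and calls needed an adjusted p (Benjamini-Hochberg, all 16428 genes of a comparison) under 0.05. Shares and counts of all genes are from that edgeR fit of 27 libraries, and none is given for DESeq2 or the other alternatives. Script steps were tested on simulated data. Alternatives were RLE size factors, DESeq2 1.42.0, no low-count filter, limma 3.58.1 on log2(TPM + 1) and log2(TPM + 0.1), only the compared groups, a covariate for title number range or for the clock genes, leaving out each animal, and, added after the data were seen, only title numbers from 200. Correlations used 100000 permutations (scipy 1.17.1).

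The 10 members and all gene lists were chosen with earlier results of these data known. All members are named; from each other list up to 3 called genes per comparison and direction are named, by size of change. Genes most like a member were sought for Glul, Axin2 and Oat only. The titles give each animal its own number, and p-values measure the spread between these animals. The smallest chi-square per gene between libraries of a stage was 42.4, so none was a repeat of another. Promoter sequences are from RefSeq; 6 members had an entry.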

Additional observations from a re-analysis of the deposited data

Results flagged for a closer look

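In the groups of 4 or 6 animals, 40 sets of values (10 genes, 4 stages) were checked for an animal far from the others. Znrf3 in animal REG_203 was at 4.89 CPM, while the other 3 REG animals lay between 7.18 and 7.61 CPM. Its gap to the nearest animal was 0.842 of the whole range, above Dixon's critical value of 0.829 for 4 samples. Chance alone flags about 1 in 20 such groups. The same animal was the lowest of its stage for 8 of the 10 genes.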

How the results depend on the processing

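No paired analysis was possible because no title number occurs in more than 1 stage. The number of called members in LAC against NUL, 5 in edgeR, became 6 in DESeq2, 3 in both TPM fits, without the low-count filter and with only the 2 groups, 2 with only title numbers from 200 (an alternative chosen after seeing the data), and 2 to 5 when 1 animal was left out. Over all stages DESeq2 called 7 in place of 3, and leaving out 1 animal gave 3 to 6, the highest without REG_203. DESeq2 called 1 in ID2, 2 in ID6 and 2 in ID8 against NUL, in place of 0, 1 and 0. With only the 2 groups in the fit, 4 were called in ID2 and 1 in ID8 against NUL, 3 in ID2 against LAC and 1 in ID4 against ID2. The 1 call in ID4 against NUL (Slc1a2) became 0 in both TPM fits, with title numbers from 200 and with the title number covariate, and 0 to 1 without 1 animal (0 without ID4_13, ID4_215, NUL_220 or NUL_221). In ID6 against NUL leaving out 1 animal gave 1 to 2 calls (2 without NUL_220 or NUL_221). Both TPM fits gave 1 in place of 2 in ID6 against ID4. Tbx3 in LAC against NUL (-0.15) turned to 0.042 with the clock covariate and ran from -0.58 (without LAC_213) to 0.070 (without NUL_221) without 1 animal, above 0 also without LAC_240. The cause of these shifts was not tested. Of the 10 calls of members, 6 held in every fit without 1 animal and 5 in all settings run: Oat in its 4 comparisons and Lgr5 in LAC. Of 108 calls of named genes from the other lists, 52 held in every fit without 1 animal and 29 in all settings run. RLE size factors moved the median of all genes by at most 0.0075. The fit on log2(TPM + 0.1) moved it by 0.11 in ID6 against ID4 and -0.11 in ID8 against ID6. In the former 4 of 10 members then lay below 0 in place of 7, and in the latter 8 in place of 3. Groups of 3 to 6 animals limit precision, and the least abundant members (Rspo3, Znrf3, Lgr5, Nkd1) rest on the fewest counts.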
